A study of Caenorhabditis elegans with 2 samples.

Results

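Proteasome and ubiquitin conjugation genes were examined for regions listed in chromatin immunoprecipitation and sequencing (ChIP-seq) of NHR-27. This is a nuclear hormone receptor of Caenorhabditis elegans. The members are all 58 protein-coding genes, of 19973 on the nuclear chromosomes, whose symbol begins pas-, pbs-, rpt-, rpn-, ubc-, ubq- or ubl- in the Ensembl annotation of assembly WBcel235. They comprise 14 genes of the 20S core particle (7 pas- and 7 pbs-), 19 genes of the 19S regulatory particle (6 rpt- and 13 rpn-) and 25 ubiquitin genes (21 ubc-, 2 ubq- and 2 ubl-). Genes were taken by symbol and not by measured values, but the list was drawn up with earlier results of these data known. It leaves out genes of the pathway with other symbols.

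The proteasome degrades proteins that carry chains of ubiquitin. Its 20S core is a barrel of alpha rings (pas- genes), which gate the entrance, and beta rings (pbs- genes), which hold the proteolytic sites. The 19S particle caps the barrel, where its AAA ATPases (rpt- genes) unfold substrates and its non-ATPase subunits (rpn- genes) bind ubiquitin and remove it. Ubiquitin comes from a polyubiquitin gene and from fusions to ribosomal proteins, and E2 conjugating enzymes (ubc- genes) pass it, or the related modifiers SUMO and NEDD8, to substrates. In worms, the factor SKN-1 is known to raise proteasome gene expression when proteasome activity falls.

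There was 1 group of worms, with 2 biological replicates and no comparison of conditions. The animals were strain OP208, genotype unc-119(ed3) III; wgIs208, young adults of both sexes collected at 78 h after synchronization by starvation at hatching, and the whole organism was used. The transgene adds a C-terminal GFP-FLAG tag, the antibody was to GFP, and sonicated DNA of 200 to 800 bp was recovered. The labels name the tagged protein nhr-27 in most fields but NHR-270 in a note on the strain, and nhr-27 is used here. Nothing in the labels says where the fusion protein is made, and no control immunoprecipitation was analysed here. The authors deposited 30000 regions for each replicate, 30000 for the pooled reads and 393 that met an irreproducible discovery rate (IDR) threshold. The lists of 30000 are labelled as peaks and background, so a listed region need not be a site of binding. Each region has a signal value in the authors' own units, with no stated scale and no read count, so the depth behind it is unknown. The lowest signal was 28.5 in the pooled list, 16.8 for replicate 1 and 15.7 for replicate 2, so a gene without a listed region had none above that value, not none at all.

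For each gene the strongest region was taken with a summit no more than 1000 bp before or 200 bp after any 5′ end of the annotation, here called the promoter window. Annotated 5′ ends of worm genes are often sites of trans-splicing rather than of transcription start. The sequences around the summits of ubq-1 and ubc-6, 2 of the 3 thresholded regions of members, are shown first. Those of ubc-13, which holds 3 of the searched words, the most of any member, and of rpn-11, which holds AGGTCA, were chosen after the search. The windows of ubc-1 and ubc-9, which hold 2 of the words each, and of pas-5, also thresholded, are not shown. Each sequence shown is 201 bases of the RefSeq WBcel235 genome centred on the pooled summit, read 5′ to 3′ on the strand of the gene. Capitals mark any of 5 words on either strand: the nuclear receptor word AGGTCA, the repeat GAGAGA, the GATA factor word TGATAA, and the SKN-1 core spelled TATCAT, or with G as TGTCAT.
ubq-1, chrIII:5940663-5940863, plus strand: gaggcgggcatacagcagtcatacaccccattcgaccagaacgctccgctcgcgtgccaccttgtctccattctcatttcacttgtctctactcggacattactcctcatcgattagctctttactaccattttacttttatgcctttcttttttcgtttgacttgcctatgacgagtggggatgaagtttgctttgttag
ubc-6, chrII:7478802-7479002, plus strand: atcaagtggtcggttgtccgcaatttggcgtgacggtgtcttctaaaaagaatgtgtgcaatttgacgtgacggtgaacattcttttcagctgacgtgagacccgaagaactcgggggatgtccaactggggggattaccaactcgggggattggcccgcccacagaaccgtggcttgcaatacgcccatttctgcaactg
ubc-13, chrIV:2925429-2925629, minus strand: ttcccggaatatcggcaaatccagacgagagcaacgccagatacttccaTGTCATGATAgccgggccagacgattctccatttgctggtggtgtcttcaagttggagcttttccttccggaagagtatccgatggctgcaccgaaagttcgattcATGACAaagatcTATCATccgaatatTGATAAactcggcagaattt
rpn-11, chrII:4044475-4044675, minus strand: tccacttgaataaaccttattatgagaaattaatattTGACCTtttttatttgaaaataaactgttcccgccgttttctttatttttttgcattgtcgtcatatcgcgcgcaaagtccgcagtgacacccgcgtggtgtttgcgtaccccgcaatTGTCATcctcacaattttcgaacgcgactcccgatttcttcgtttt

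The windows of ubq-1, ubc-6 and pas-5, the thresholded members, hold none of the 5 words. That of ubc-13, whose summit is in its own coding exon, holds both spellings of the SKN-1 core on each strand and TGATAA once, and 1 pair of these matches overlaps. The rpn-11 window holds AGGTCA on the minus strand of the sequence shown and TGTCAT on the plus. In the ubc-6 window 52.7% of bases were G or C and 52.7% were soft-masked by RefSeq as repeated or of low complexity, while the ubq-1 window had 46.3% G or C and 10.4% masked.

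Of the 58 genes, 3 had a thresholded region in the promoter window (5.17%, against 1.01% of all protein-coding genes): ubq-1, ubc-6 and pas-5. They were among the 30 members with any pooled region, a share of 10% against 2.77% of protein-coding genes with a pooled region. They fell in 2 of the 3 classes, since 2 were ubiquitin genes and 1 was a 20S gene. None of the 19S genes had one (0 of 19, which would allow a share of up to 15.8% if genes were independent draws). No test was made between classes or against other genes, because the list was drawn up with results of these data known and genes are not replicates.

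The polyubiquitin gene ubq-1, which encodes ubiquitin as a chain of head-to-tail copies, had the highest signal of any member. The region, at chrIII:5940568-5940957, had a pooled signal of 117.8 and rank 147, with a deposited −log10 q value of 2.59. Its signal was 56.4 in replicate 1 (rank 256) and 72.6 in replicate 2 (rank 81), or 64.5 ± 11.4 (SD, n = 2). It was the only member region among the 393 highest of both replicates' own lists. The summit lay 223 bp upstream of the downstream 5′ end of ubq-1 and 509 bp downstream of the upstream 5′ end, inside an intron of the longer transcript. With the outermost 5′ end of each gene alone, ubq-1 therefore had no thresholded region, and 2 members did. No other protein-coding gene had this summit in its window, and the nearest small RNA gene was 9316 bp away.

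The gene ubc-6, whose yeast counterpart is an E2 enzyme of the endoplasmic reticulum that acts in degradation of misfolded proteins, had nearly equal values in the replicates. Its region at chrII:7478707-7479096 had a pooled signal of 96.2 (rank 330, −log10 q 2.12). Replicate 1 gave 47.3 (rank 590) and replicate 2 gave 47.6 (rank 513), or 47.4 ± 0.18 (SD, n = 2). Neither rank was within the 393 highest of its own list. The summit was 285 bp upstream of ubc-6 and 365 bp upstream of aka-1 on the other strand, a divergent pair that shares it.

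The gene pas-5 encodes an alpha-ring subunit of the 20S core. Its region, at chrI:10565275-10565664, had a pooled signal of 96.3 (rank 329, −log10 q 2.12), just above that of ubc-6. The replicates differed more, with 38.2 in replicate 1 (rank 1764) and 61.9 in replicate 2 (rank 170), or 50.1 ± 16.7 (SD, n = 2). The summit lay 880 bp upstream of pas-5, in no other protein-coding window, and 27 bp from the small nucleolar RNA gene F25H2.15. It was the only one of the 30 member regions within 200 bp of a small RNA gene (3.33%, against 2.45% of genes with a pooled region), and the part of that gene in the signal was not tested. The lowest thresholded signal was 92.1, so pas-5 and ubc-6 lay just inside that limit, and the highest member below it was ubc-3 at 73.

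**Figure D1:**
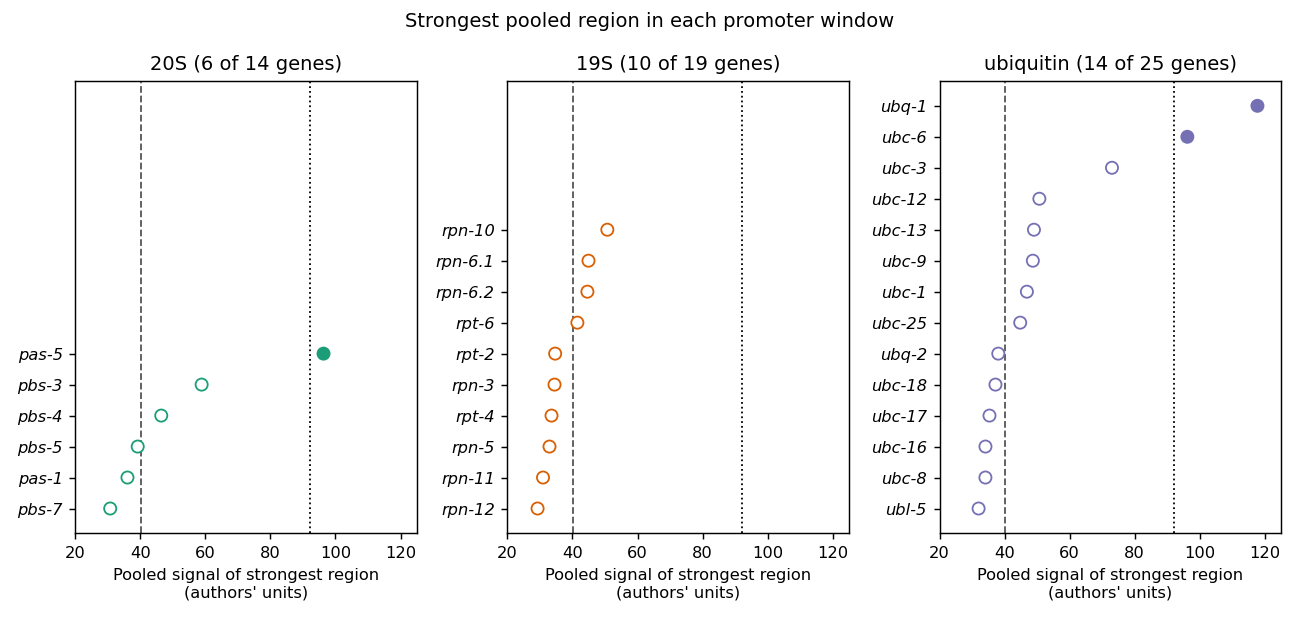
Pooled signal of the strongest region (horizontal axis, authors' units) for each member with a region, by class. Filled circles are thresholded regions, the dashed line is the median of all protein-coding genes with a pooled region (40.2) and the dotted line the lowest thresholded signal (92.1). All 19S genes lie at or below 50.7, and ubq-1, pas-5 and ubc-6 stand to the right of the dotted line.

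In the pooled list, 30 of the 58 members had a region (51.7%), against 36.4% of all protein-coding genes. The counts were 14 of 25 ubiquitin genes (56%), 10 of 19 19S genes (52.6%) and 6 of 14 20S genes (42.9%). The median signal over the 30 was 40.3, against 40.2 for all protein-coding genes with a pooled region. By class the medians were 45.8 for ubiquitin, 42.8 for 20S and 34.6 for 19S genes, with ranges of 32 to 117.8, 30.7 to 96.3 and 29.3 to 50.7 that overlap. Apart from ubq-1, ubc-6 and pas-5, the deposited −log10 q of these regions was low, from 0.03 at rpn-12 to 0.92 at ubc-3. Such regions may be background.

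Many of these regions lay as near, or nearer, to a neighbouring gene. For 13 of the 30 members a further protein-coding gene had the same summit in its own window (43.3%, against 21.2% of genes with a pooled region), most often for 19S genes (7 of 10). The member's own 5′ end was the nearest for 17 of 30 (56.7%, against 81.8%). When each region was given only to the gene with the nearest 5′ end, 19 members had one (32.8%), against 30.7% of all protein-coding genes. By class these were 10 ubiquitin, 5 19S and 4 20S genes, and the 3 thresholded members kept their thresholded regions. Under that assignment the members' share was close to the background. A window longer than the 1201 bp of a single 5′ end was held by 24.1% of members and 26.3% of all genes. By class it was held by 42.1% of 19S, 24% of ubiquitin and 0 of 14 20S genes, which have 1 annotated 5′ end each.

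**Figure D2:**
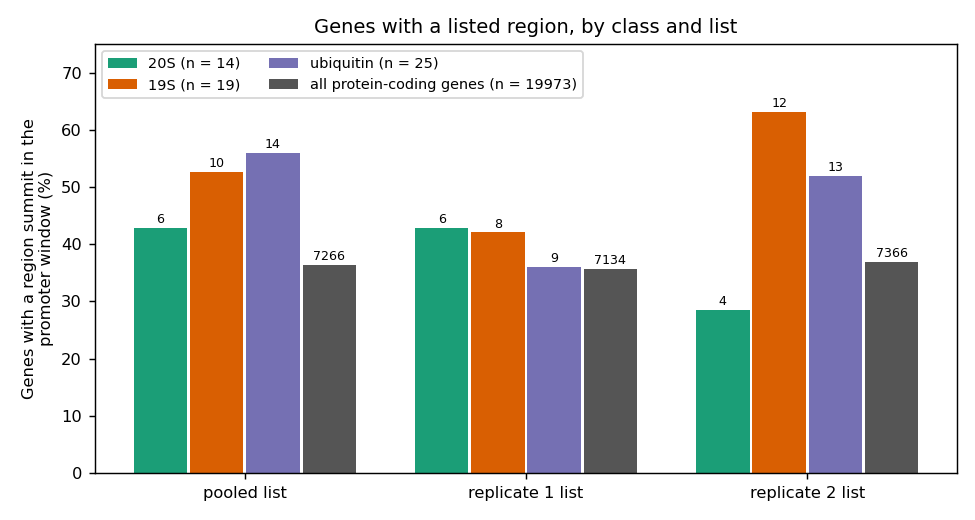
Share of genes (vertical axis, %) with a region summit in the promoter window, by list, for the 3 classes and all protein-coding genes. Numbers over the bars are counts of genes. The order of the classes differs between the lists of the replicates, with 20S genes highest in replicate 1 (42.9%) and lowest in replicate 2 (28.6%).

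The order of the classes was not the same in the replicates. Replicate 1 had regions for 23 members (39.7%, against 35.7% of all protein-coding genes) and replicate 2 for 29 (50%, against 36.9%). In replicate 1 these were 6 of 14 20S genes (42.9%), 8 of 19 19S genes (42.1%) and 9 of 25 ubiquitin genes (36%). In replicate 2 they were 12 19S genes (63.2%), 13 ubiquitin genes (52%) and 4 20S genes (28.6%). Some summit in the window was found in both replicates' lists for 18 members (31%, against 21.3%), which were 8 ubiquitin, 8 19S and 2 20S genes. These summits need not be of the same region. For rpn-6.1 they lay 423 bp upstream in replicate 1 and 959 bp upstream in replicate 2. The member's pooled region itself overlapped a region in both lists for 9 ubiquitin, 5 19S and 3 20S genes. Among the 393 highest regions of replicate 1 the members had 1 (ubq-1, 1.72% against 0.891%), and among those of replicate 2 they had 2 (ubq-1 and pas-5, 3.45% against 1.03%).

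The members were also counted by how high their regions ranked, which leaves few genes in each class and was not tested between classes. Among the 1000 highest pooled regions were those of the same 3 members (5.17%, against 2.31%). Among the 5000 highest were 5 members (8.62%, against 8.43%), with ubc-3 and pbs-3 added. No 19S gene had such a region inside the window (0 of 19, which would allow up to 15.8% if genes were independent draws). Outside it, within 2000 bp upstream or 500 bp downstream of a 5′ end, 4 19S genes had one. Among the 10000 highest were 14 (24.1%, against 15.2%), of which 8 were ubiquitin genes (32%), 3 were 20S genes (21.4%) and 3 were 19S genes (15.8%).

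**Figure D3:**
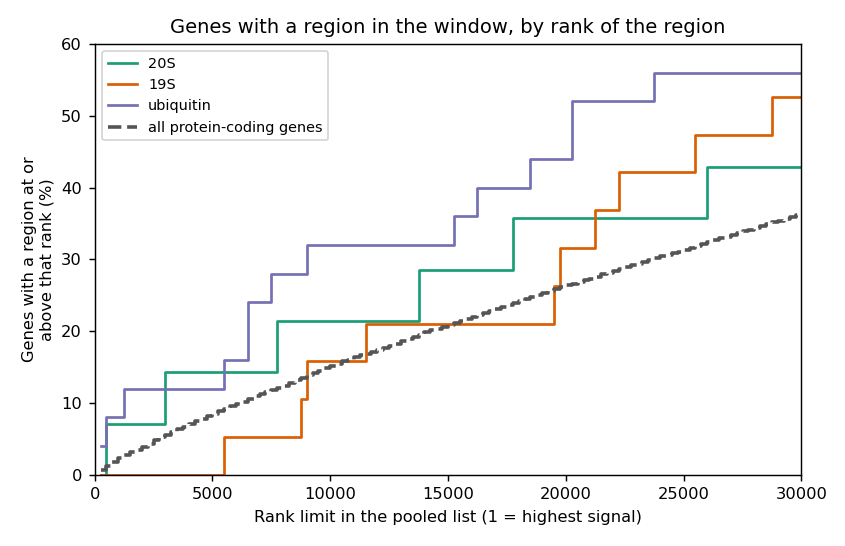
Cumulative share of genes (vertical axis, %) with a region in the window at or above a rank in the pooled list (horizontal axis, 1 is the highest signal). The ubiquitin line runs above the dashed line of all protein-coding genes at ranks of 250 and above on the axis, reaching 56%, and the 19S line is at 0% at rank 5000 and reaches 52.6% at the end of the list.

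Among 20S genes, the alpha ring had 2 of 7 members with a pooled region and the beta ring 4 of 7. After pas-5, the beta-ring gene pbs-3 was highest at 58.8 (rank 2878), with 36 in replicate 1 and 22.7 in replicate 2, or 29.3 ± 9.39 (SD, n = 2). Its summit was 767 bp upstream of pbs-3, in a coding exon of ulp-2, a SUMO protease gene. The region of the beta-ring gene pbs-4 had 46.4 in the pooled list and 36.6 in replicate 1, and replicate 2's list had no region there. For pbs-5, which encodes the subunit with the chymotrypsin-like site, the pooled signal was 39.2 in the gene's own coding exon, 81 bp downstream of its 5′ end. Replicate 1 gave 31.5 there, while the overlapping region of replicate 2 (40.1) had its summit 310 bp downstream, outside the window, where the pooled list has a separate region of 50.7. The alpha-ring gene pas-1 had 36 in the pooled list and 18.3 in replicate 2, at a summit 100 bp upstream of rpoa-12 on the same strand and 786 bp upstream of pas-1. The sixth, pbs-7, had 30.7 at a summit shared with F39H11.1.

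Among 19S genes the ATPases had 3 of 6 members with a pooled region and the non-ATPases 7 of 13. The highest was rpn-10, which encodes a receptor for ubiquitin chains, at 50.7 (rank 5473), in its own coding exon 139 bp downstream of the 5′ end. Its replicates were far apart, at 18 (rank 26247) and 30.3 (rank 4070), or 24.1 ± 8.72 (SD, n = 2). The next was rpn-6.1, a lid scaffold subunit linked to longevity, at 44.9, with 37.7 in replicate 1 and no region there in replicate 2's list. Its summit was nearer to F57B9.1, 114 bp into that divergent gene. The paralog rpn-6.2 had 44.6, with 26.6 and 23.8 in the replicates (25.2 ± 2, SD, n = 2), but its summit lay 8 bp downstream of the 5′ end of zif-1 and 788 bp upstream of rpn-6.2. Of the ATPase genes, rpt-6 had 41.5 (18.4 and 22.9 in the replicates) at a summit shared with the histone gene his-72. The gene rpt-2 had 34.7 at a summit shared with aps-1 and picc-1, and rpt-4 had 33.6 at one shared with nfyc-1. The other members were rpn-3 (34.5, in a coding exon of hsp-110), rpn-5 (32.9), rpn-11 (30.9) and rpn-12 (29.3, in a coding exon of rad-23, itself a gene for a proteasome shuttle factor). The region of rpn-11, which encodes the deubiquitinase of the lid, was in replicate 2's list (17.7) and not in that of replicate 1. Replicate 1 had a different region in the rpn-11 window (21.8, rank 16424), 186 bp downstream.

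Among ubiquitin genes, 3 of the 4 that encode ubiquitin or a relative had a pooled region, and their levels were far apart. Beside ubq-1 at 117.8, ubq-2, which encodes ubiquitin fused to a large-subunit ribosomal protein, had 38.1, with 21.1 in replicate 1 and 21 in replicate 2 (21.1 ± 0.0575, SD, n = 2). Its summit, 396 bp upstream, was nearer to frg-1 on the other strand, at 243 bp. The gene ubl-5, known for its part in the mitochondrial unfolded protein response, had 32 in the pooled list, 26.9 in replicate 2 and no region in replicate 1's list, at a summit in a coding exon of vha-10. The gene ubl-1, a ubiquitin-like fusion to a small-subunit ribosomal protein, was listed in replicate 2 alone, at 25.9 and 200 bp upstream. Of these 4 genes, ubq-1 exceeded the others in each list in which they had a value.

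Of the 21 E2 genes, 11 had a pooled region. After ubc-6, the highest was ubc-3, the counterpart of yeast CDC34, which works with SCF ubiquitin ligases. It had a pooled signal of 73 (rank 1041), with 19 in replicate 1 (rank 23181) and 44.8 in replicate 2 (rank 698), or 31.9 ± 18.2 (SD, n = 2). The NEDD8-conjugating enzyme gene ubc-12 had 50.7 (rank 5481), with 17 in replicate 1 (rank 29385) and 32.5 in replicate 2 (rank 3046). The 2 overlapping regions had different summits, 520 bp upstream in replicate 1 and 784 bp upstream in replicate 2. Replicate 1 also had a stronger region in the window (25.1, rank 10844), 55 bp downstream. The pooled summit was nearer to rbm-3.2 than to ubc-12. The members whose rank differed most among the 17 regions listed in both replicates were ubc-12, ubc-3 and rpn-10. The regions of rpn-6.1 (rank 1912) and pbs-4 (rank 2235) were high in replicate 1 and not among the 30000 of replicate 2, so their ranks differed more. Those of ubc-16 (rank 4244) and ubl-5 (rank 6693) were in replicate 2's list and not among the 30000 of replicate 1. Their ranks differed by more than those of ubc-3 and rpn-10. The gene ubc-13, for the E2 of lysine-63-linked chains, had 49 and close replicates, 22.4 and 23.1 (22.8 ± 0.504, SD, n = 2), at a summit in its own coding exon 162 bp downstream of the 5′ end. The SUMO-conjugating gene ubc-9 had 48.7 at a summit 986 bp upstream, the closest to the upstream edge of the window, and nearer to F29B9.7. The remaining 6, ubc-1, ubc-25, ubc-18, ubc-17, ubc-16 and ubc-8, ranged from 34.1 to 46.9.

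**Figure D4:**
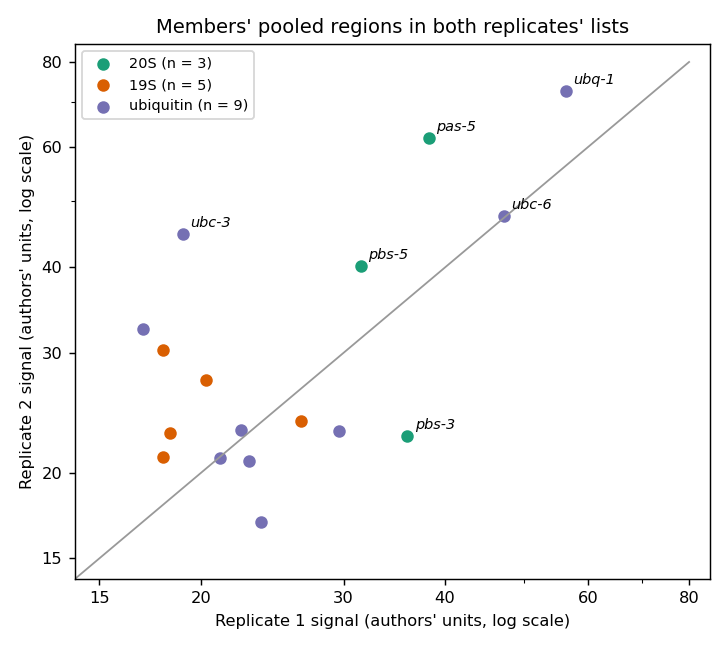
Signal in replicate 1 (horizontal) and replicate 2 (vertical), authors' units on log scales, of the 17 member regions of the pooled list that overlap a region in both replicates' lists. The line marks equal values. The points of ubq-1 and ubc-6 are high in both, ubc-3 is high in replicate 2 alone, and the 19S genes lie below 31 in both.

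A counterpart here is the strongest region of a replicate's list that overlaps the pooled one, and its summit can differ between replicates. At ubc-25 it lay 69 bp downstream of the 5′ end in replicate 1 and 218 bp upstream in replicate 2. Such pairs are included in the values that follow. The pooled region had a counterpart in both replicates' lists for 17 of the 30 members (56.7%, against 50.2% of genes with a pooled region). In 5 the region was in replicate 1's list alone, in 6 in replicate 2's alone, and for ubc-8 and rpn-12 it was in neither. Of the 17, 12 were within 1.5-fold between replicates and the median ratio of the higher to the lower was 1.28, with the largest, 2.35, at ubc-3. The share within 1.5-fold was 70.6%, against 73.2% of the 3648 protein-coding genes with a counterpart in both lists, whose median ratio was 1.26. The order of the signals was only loosely shared: across the 17 regions of these 2 libraries, Spearman's rho was 0.33, against 0.32 across those 3648 genes, and it was -0.20 across the 14 regions without ubq-1, ubc-6 and pas-5. Replicate 2 was higher for 11 and replicate 1 for 6. The lists' scales are not stated to be equal, and the medians over all listed regions were 22.5 for replicate 1 and 21.2 for replicate 2.

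A region in at least 1 of the lists was found for 36 members (62.1%, against 53.1% of all protein-coding genes), and 22 had none. Among 20S genes these were pas-2, pas-4, pas-6, pas-7, pbs-2 and pbs-6. Among 19S genes they were rpt-1, rpt-3, rpt-5, rpn-1, rpn-2 and rpn-9, so 3 of the 6 ATPase genes were without one. Among E2 genes they were ubc-7, ubc-14, ubc-15, ubc-19, ubc-20, ubc-21, ubc-22, ubc-23, ubc-24 and ubc-26. A further 6 members had a region in a replicate's list and not in the pooled one: pas-3 in replicate 1 (18), and in replicate 2 pbs-1 (25.5), ubl-1 (25.9), rpn-7 (18.7), rpn-13 (17.7) and rpn-8 (17.4).

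The edge of the window left out a stronger region for many members. Counting summits outside it but within 2000 bp upstream or 500 bp downstream of a 5′ end, a bound chosen after the values were seen, 14 of the 30 members with a pooled region inside had a stronger one outside (46.7%, against 21.3% of protein-coding genes with a region inside). By class these were 4 of 6 20S, 6 of 10 19S and 4 of 14 ubiquitin genes. Of the 28 members with none inside, 13 had one there (46.4%, against 31.5%). These outer regions were not checked for a nearer 5′ end of another gene, so they are not shown to belong to the members. The largest was a thresholded region of signal 117.8 and rank 146 lying 1542 bp upstream of pbs-1. For pbs-3 a region of 69.1 lay 450 bp downstream of the 5′ end, and for pas-1 one of 68.3 lay 387 bp downstream, each higher than the gene's own region in the window. The contrast of the 19S genes depends on the window. With these outer regions counted, 4 19S genes had a region among the 5000 highest: rpn-12 (61.4, rank 2386, 1997 bp upstream), rpn-3 (59.8, rank 2676, 1523 bp upstream), rpt-1 (53.5, rank 4397, 339 bp downstream) and rpn-1 (53.1, rank 4528, 1583 bp upstream). In the same span 4 20S and 6 ubiquitin genes had one, so the shares were 21.1% of 19S, 28.6% of 20S and 24% of ubiquitin genes, against 14.5% of all protein-coding genes. The closest outside the downstream edge was at pbs-3, at 209 bp (45.4), and the closest outside the upstream edge was at pbs-5, at 1137 bp (46.5).

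**Figure D5:**
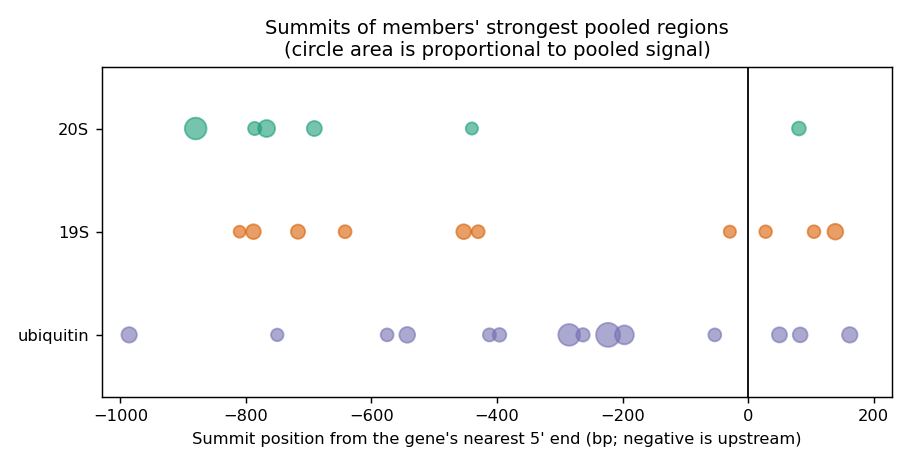
Position of the summit of each member's strongest pooled region from its nearest 5′ end (horizontal axis, bp, negative upstream), by class. Circle area is proportional to pooled signal. The highest ubiquitin regions, of ubq-1, ubc-6 and ubc-3, lie 197 to 285 bp upstream, and that of pas-5 lies 880 bp upstream. Stronger regions outside the window are not drawn.

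Summits lay upstream of the nearest own 5′ end for 23 of the 30 members and downstream for 7 (23.3%, against 22.4% of genes with a pooled region). The median distance from that end was 274 bp for ubiquitin genes, 441.5 bp for 19S genes and 729 bp for 20S genes, against 295 bp for all genes with a pooled region. The ranges overlap, at 50 to 986 bp, 28 to 810 bp and 81 to 880 bp. Of the 6 20S summits, 5 were at least 440 bp upstream, but these positions depend on the window. Past its downstream edge of 200 bp, stronger regions lay at pbs-5 (310 bp, 50.7), pas-1 (387 bp, 68.3), pbs-7 (418 bp, 44.8) and pbs-3 (450 bp, 69.1). These 4 regions were not checked for a nearer 5′ end of another gene.

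Base composition was close to that at other genes, and each searched word was at few summits. Median GC content within 100 bp of the summit was 40% for the 30 members, against 40.3% for all genes with a pooled region, and by class 44.3% (20S), 40% (19S) and 38.1% (ubiquitin). AGGTCA was within 100 bp of 2 of the 30 summits, those of rpn-11 and ubl-5 (6.67%, against 5.78% of the 6558 distinct strongest regions of all genes). GAGAGA was at 5 (16.7%, against 17.6%), 4 of them at ubiquitin genes (ubc-3, ubc-9, ubc-1 and ubq-2) and 1 at pbs-5. TGATAA was at 3 (10%, against 14.6%), all at ubiquitin genes. Either spelling of the SKN-1 core was at 5 (16.7%, against 19.6%). By spelling, TGTCAT was at 5 (16.7%, against 10.6%) and TATCAT at 1 (3.33%, against 10.2%). These are matches of letters on either strand and do not show that a factor binds.

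Other genes of the pathway were taken from a separate list. Of 80 names, 77 were found in the annotation, among them genes for E1 enzymes, cullins, E3 ligases, deubiquitinases, COP9 signalosome subunits, shuttle factors and the regulator skn-1. Of these, 39 had a pooled region (50.6%, against 36.4%), with a median signal of 47.7, and 4 had a thresholded one (5.19%, against 1.01%). The highest was cdc-48.1, which encodes the AAA ATPase that extracts ubiquitylated proteins, at 147.3 (73.3 in replicate 1 and 72.2 in replicate 2) and 162 bp upstream. The next were wwp-1, a HECT ligase gene (103.6, with 40.3 and 75.7), and ufd-3, which encodes a partner of CDC-48 (99.9, with 53.1 and 53.6). The COP9 signalosome gene csn-6 had 94.5 (52.8 and 41.2). The gene skn-1 followed at 85.2 (31.4 and 50.9), 47 bp upstream and below the lowest thresholded signal. With the nearest 5′ end only, 30 of the 77 had a pooled region (39%, against 30.7%).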

How the data were processed

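The data are region lists from ChIP-seq of 2 biological replicates. Per the text notes deposited with the samples, the authors made each replicate's list and the pooled list from alignments to ce11 (WBcel235) and a control alignment, and the thresholded set from those 3 lists. The signal of a region and its −log10 q are deposited values of the authors; the caller, aligner and IDR threshold are not given in the sources used here. Signals served only to describe and rank regions, and depth is unknown.

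Genes and 5′ ends (29314, of protein-coding transcripts) came from Ensembl release 115 and sequence from the RefSeq genome, both WBcel235. Each gene received its strongest summit in the window of 1000 bp upstream to 200 bp downstream, with distances to the nearest own 5′ end. A pooled region was matched to the strongest overlapping region of each replicate. Small RNA genes are tRNA, snoRNA, snRNA, rRNA and miRNA genes. The assignment was checked on simulated regions. Python 3.11.15 and pandas 2.3.3 were used.

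Members, lists and settings were chosen with earlier results of these data known, so values are descriptions with no p. Genes were named by a rule: thresholded members, the 3 highest of each class, members without a region and the 5 highest related genes. The rule also took the 3 with the largest rank difference among regions in both replicates' lists. Other members, and regions outside the window, were named after their values were seen. Replicates are separate samples per the labels.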

Additional observations from a re-analysis of the deposited data

How the results depend on the processing

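Of 55 alternative values for 6 results, 36 stayed within 1.5 times the reported count, or within the replicates' spread for the median. The number of members with a thresholded region, 3, was 5 among the 5000 highest pooled regions (8.62% against 8.43% of all genes). It was 1 (ubq-1) among the thresholded regions with a signal above their median (1.72% against 0.561%). Among the 393 highest regions with 1 replicate left out it ran from 1 to 2. These were ubq-1 alone without replicate 2 (1.72% against 0.891%), and ubq-1 and pas-5 without replicate 1 (3.45% against 1.03%). Without regions near small RNA genes the number was 2, without pas-5 (3.45% against 0.791% of all genes). From 500 bp upstream to 100 bp downstream it was also 2 (3.45% against 0.726%). From 2000 bp upstream it was 4, with pbs-1 (6.9% against 1.44%). The number with a pooled region, 30, was 14 among the 10000 highest regions (24.1% against 15.2% of all genes). It was 18 in the narrower window (31% against 22.3%) and 19 with the nearest 5′ end only (32.8% against 30.7%). It was 23 without replicate 2 (39.7% against 35.7%) and 29 without replicate 1 (50% against 36.9%). In the same order, beside the same shares of all genes, the 10 19S genes became 3, 5, 5 and 8 to 12. The 6 20S genes became 3, 3, 4 and 4 to 6. The 14 ubiquitin genes became 8, 10, 10 and 9 to 13. The median signal, 40.3, was 37.6 in the narrower window (40.1 for all genes), 46.4 in the wider (41.2), 44.8 with the nearest 5′ end only (40) and 44.7 with regions that overlap the window (40.6). It ran from 22.9 to 25.1 in the single replicates' lists, whose scale is lower. The cause of these changes was not tested, beyond the smaller or larger sets of regions that each setting leaves. With regions up to 2000 bp upstream and 500 bp downstream, a setting chosen after seeing the data, 14 members had one among the 5000 highest. That was 24.1%, against 14.5% of all genes, and 4 of the 14 were 19S genes. In that setting, regions nearer to another gene were not removed. No paired analysis was possible because there is 1 group. Unknown read depth and the end of each list at 30000 regions limit what can be said of genes without a region.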
